A study of Homo sapiens with 6 samples.

Results

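Integrins and the proteins of focal adhesions were followed at the RNA level in 2 human bladder cancer lines, T24 and UM-UC-3 (written UMUC3 here), with and without knockdown of circPTK2, a circular RNA that shares exons with the gene of focal adhesion kinase. The group holds 31 genes, chosen by name, out of 30717 genes with a row in the count table: 7 integrin alpha subunits, 5 beta subunits, 9 activators and linkers to actin, 4 proteins of the ILK-PINCH-parvin complex and 6 kinases or adaptors. PTK2 itself was left out. The groups, by line, were circPTK2 knockdown in T24 (2 libraries), the matching control in T24 (1 library), circPTK2 knockdown in UMUC3 (2 libraries) and the matching control in UMUC3 (1 library). Sample titles name small interfering RNAs 1 and 2 as the reagents, while the design text of the series names short hairpin constructs, so the reagent is not settled. Knockdown libraries are numbered by the titles, and in T24 the data columns carry these numbers the other way round. The titles give the 2 knockdown libraries of a line different numbers, so they may carry different reagents, and they are treated here as replicates. The p-values within a line come from the spread of the knockdown pairs of both lines together, which then holds any difference between reagents. The labels do not say whether libraries of a group came from separate cultures, so that every p-value below may also reflect technical variation. The level of circPTK2 was not checked, because reads of the circle and of linear PTK2 cannot be separated in these files.

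Integrins are receptors made of an alpha and a beta chain that bind the extracellular matrix. Once talin and kindlin engage the beta tail, linkers such as vinculin, alpha-actinin and filamin join it to actin filaments, and a layer of kinases and adaptors around paxillin, Src and p130Cas passes the signal on. In urothelium, integrin alpha-6 beta-4 anchors basal cells to the basement membrane, and alpha-2, alpha-3 and alpha-5 paired with beta-1 bind collagen, laminin and fibronectin.

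Each library held 65111683 to 72362436 counts, of which 55071837 to 60780176 fell in genes. All 31 genes passed the filter on low counts (10 or more in 2 libraries, 30 or more summed). Levels are given as CPM, counts relative to the total of gene counts, scaled with TMM factors. The 31 genes took 1.98 and 1.91% of gene counts in the T24 knockdown libraries, against 1.69% in its control. In UMUC3 they took 1.49 and 1.46% in the knockdown libraries, against 1.34% in the control. Filamin A (FLNA) alone made up a large share, and without it the values were 1.12 and 1.09% against 0.961% in T24, and 0.948 and 0.92% against 0.86% in UMUC3. Epithelial markers, the check on the label of bladder cancer cells, differed between the lines: 15 epithelial and urothelial markers summed to 3281 to 3465 CPM in T24 and to 179 to 200 CPM in UMUC3. KRT8, KRT18, KRT19 and KRT7 made up most of the T24 sums, with KRT8 alone at 1482 to 1692 CPM. KRT5, KRT20, TP63, UPK1A, UPK1B and UPK2 did not exceed 0.502 CPM in any library. EPCAM was at 0 in every UMUC3 library, and CDH1 was at 0 in 5 of the 6 libraries. The 7 immune markers in the table summed to 8.73 and 9.52 CPM in T24 knockdown libraries against 14.9 CPM in the control, and to 57.0 and 54.6 CPM against 33.8 CPM in UMUC3, where CD68 made up 54.2 and 51.2 CPM against 28.2 CPM. PTPRC, the pan-leukocyte marker, did not exceed 0.0673 CPM. The 8 endothelial, platelet and stromal markers summed to 69.96 and 72.1 CPM against 81.5 CPM in T24, nearly all of it CDH5, and to 10.65 and 4.40 CPM against 10.3 CPM in UMUC3, where CDH5 was at 0. The share of mitochondrially encoded RNA was 3.36 and 3.5% in T24 knockdown libraries against 2.68% in the control, and 4.26 and 4.62% against 4.62% in UMUC3. The part of these markers in the results was not tested.

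The 2 lines carried different sets of integrin subunits. T24 had ITGB4 and ITGB8 and no ITGA4, while UMUC3 had ITGA4 and practically no ITGB4 or ITGB8. Of the 31 genes, 15 were higher and 4 lower in T24 than in UMUC3 (edgeR quasi-likelihood test over 6 libraries with knockdown as a term, adjusted p under 0.05), beside 40.2% of all 20721 tested genes, 21.3% higher and 18.9% lower. In 16 genes every T24 library lay above every UMUC3 library, and in 6 below, beside 27.2 and 25.1% of all genes. The median log2 difference was 0.65 over 29 members and 0.01 over all genes, taking those with counts in both lines.

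ITGA4 (ENSG00000115232, chromosome 2, 181457202 to 181536187, plus strand of GRCh38), the alpha-4 chain that binds VCAM1 and fibronectin, had no count in any T24 library. In UMUC3 it stood at 40.0 and 44.4 CPM in the knockdown libraries and 36.0 CPM in the control. Against a floor of 3 counts per library, the level was at least 795-fold lower in T24. ITGB4 (ENSG00000132470, chromosome 17, 75721328 to 75757818, plus strand), the beta chain of the hemidesmosome receptor, showed the reverse, with 28.5, 23.8 and 68.7 CPM in T24 knockdown 1, knockdown 2 and control, and no count in UMUC3. Its level was at least 773-fold higher in T24 by the same floor. ITGB8 (ENSG00000105855, chromosome 7, 20330702 to 20415754, plus strand), whose product pairs with alpha-V and activates latent TGF-beta, had 89.4, 123 and 149 CPM in T24, against 0, 4 and 0 counts in UMUC3. In bulk RNA, fewer cells holding a transcript and less of it per cell cannot be told apart, so a level near 0 is a statement on the culture as a whole.

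ITGA1, a collagen receptor chain (ENSG00000213949, chromosome 5, 52787896 to 52959210, plus strand), was low in both lines, at 7.38, 5.79 and 6.25 CPM in T24 knockdown 1, knockdown 2 and control, against 0.214, 0.197 and 0.878 CPM in UMUC3. The log2 difference was 3.96 ± 0.47 (SE, edgeR adjusted p = 0.00205). The laminin receptor chain ITGA3 (ENSG00000005884, chromosome 17, 50055968 to 50090481, plus strand) had 1974, 1717 and 1464 CPM in T24, in the same order of libraries, against 819.7, 852 and 896 CPM in UMUC3, with no overlap and a log2 difference of 1.00 ± 0.12 (adjusted p = 0.00193, edgeR). It was the highest alpha subunit in both lines per transcript length, at a median of 747 TPM (counts scaled for transcript length and library) over the T24 libraries and 375 TPM over the UMUC3 libraries. ITGA6, the partner of beta-4 and beta-1 on laminin (ENSG00000091409, chromosome 2, 172427354 to 172506282, plus strand), stood at 218, 145 and 162 CPM in T24 against 80.0, 100.05 and 84.5 CPM in UMUC3 (0.99 ± 0.19, edgeR adjusted p = 0.0102). UMUC3 held ITGA6 transcripts with no counted ITGB4.

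ITGAV (ENSG00000138448, chromosome 2, 186590065 to 186680901, plus strand), the alpha chain shared by the receptors for RGD ligands such as vitronectin, had 304, 297 and 173 CPM in T24 and 116, 129 and 145 CPM in UMUC3. The difference of 0.95 ± 0.23 passed the test (edgeR adjusted p = 0.0217), but between the control libraries alone it was 0.26. ITGA2 (ENSG00000164171, chromosome 5, 52989326 to 53094779, plus strand), the alpha-2 chain of the collagen receptor, showed a like pattern: 458, 476 and 233 CPM in T24 against 60.7, 70.0 and 195 CPM in UMUC3 gave 2.02 ± 0.58 (edgeR adjusted p = 0.0416), and the controls alone gave 0.26. The fibronectin receptor chain ITGA5 (ENSG00000161638, chromosome 12, 54395261 to 54419460, minus strand) had 397, 386 and 146 CPM in T24 against 482, 439 and 414 CPM in UMUC3. Every T24 library was below every UMUC3 library, the T24 control furthest. The pooled difference of -0.65 ± 0.27 did not pass (edgeR adjusted p = 0.115). Between the controls alone, with 1 control library in each line, it was -1.50.

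Among beta chains, ITGB1 (ENSG00000150093, chromosome 10, 32900319 to 33005792, minus strand), the common partner of most alpha chains, was lower in T24, at 1536, 1602 and 1333 CPM against 2709, 2442 and 1877 CPM in UMUC3 (log2 -0.64 ± 0.08, edgeR adjusted p = 0.0026). ITGB3, a vitronectin and fibrinogen receptor chain (ENSG00000259207, chromosome 17, 47253846 to 47311816, plus strand), was higher, at 104, 89.96 and 78.1 CPM in T24 against 38.2, 35.1 and 15.5 CPM in UMUC3 (1.71 ± 0.23, adjusted p = 0.0029). ITGB5, another partner of alpha-V, had 118, 198 and 206 CPM in T24 against 203, 218 and 138 CPM in UMUC3, and the lines overlapped (edgeR adjusted p = 0.845). Per transcript length, ITGB1 led the beta chains of both lines, with medians of 880.3 TPM in T24 and 1414 TPM in UMUC3, followed by ITGB5 with 156 TPM in T24 and 145 TPM in UMUC3. By median TPM over knockdown and control libraries, the next alpha chains after ITGA3 in T24 were ITGA5, ITGA2, ITGAV and ITGA6, neighbours whose ranges overlapped. The T24 control alone had another order, with ITGA6 at 77.3, ITGA5 at 70.4, ITGA2 at 61.5 and ITGAV at 52.3 TPM. In UMUC3, ITGA5 came next with 187 to 212 TPM and overlapped no other alpha chain. ITGAV, ITGA6, ITGA4 and ITGA2 followed there by median, and of these neighbours ITGA6 and ITGA4 did not overlap. In the UMUC3 control alone, ITGA2 at 47.3 TPM was above ITGAV at 41.5, ITGA6 at 32.9 and ITGA4 at 25.8 TPM.

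**Figure D1:**
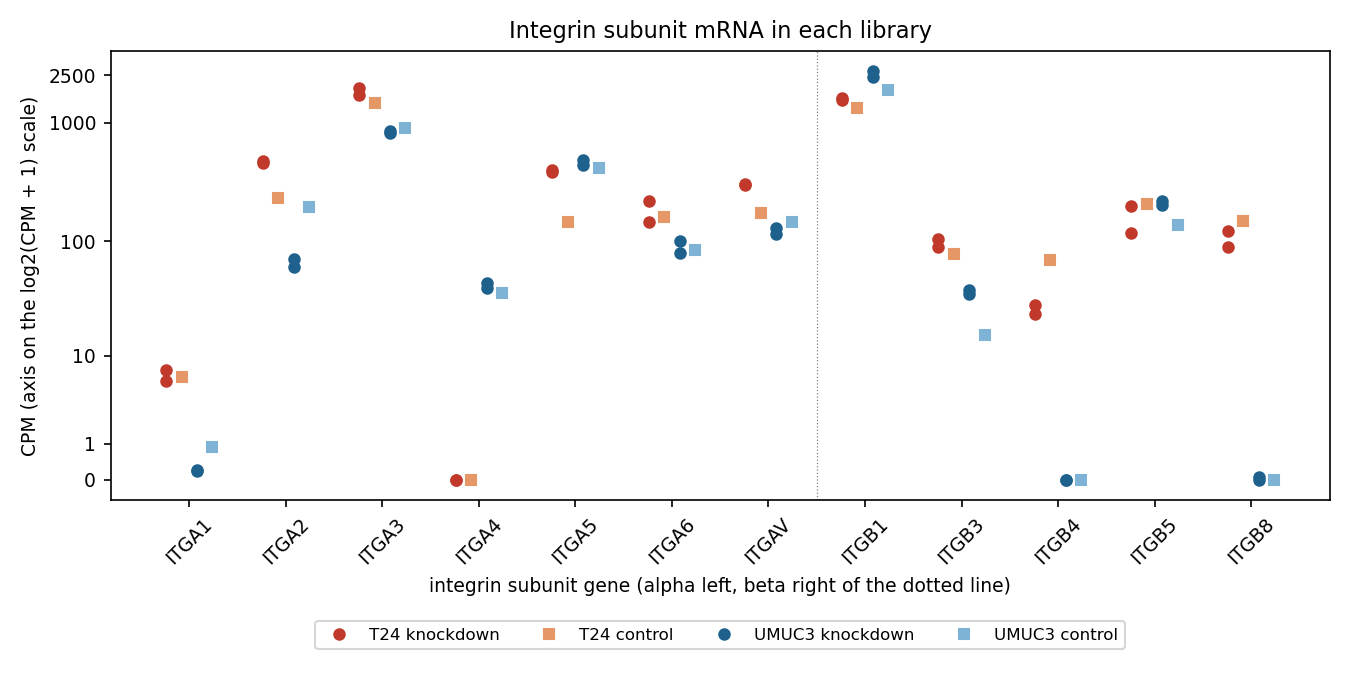
CPM of the 12 integrin subunit genes in each library (y axis on the log2(CPM + 1) scale), knockdown libraries as circles and controls as squares, T24 in red tones and UMUC3 in blue tones. ITGA4 lies at 0 in T24 and ITGB4 at 0 in UMUC3, and the UMUC3 knockdown libraries of ITGA2 lie at 60.7 and 70.0 CPM, below the UMUC3 control at 195 CPM.

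Of the activators and linkers, talin 1 (TLN1) and vinculin (VCL) were close between the lines: TLN1 had 1004, 854 and 785 CPM in T24 against 873, 849 and 749 CPM in UMUC3, and VCL had 762, 771 and 589.8 CPM against 719.8, 758 and 821 CPM. Neither difference passed (edgeR adjusted p = 0.436 and 0.481). TNS3 (ENSG00000136205, chromosome 7, 47275154 to 47582558, minus strand), a tensin that ties beta tails to actin, stood at 195, 203 and 162 CPM in T24 against 14.0, 13.3 and 12.2 CPM in UMUC3, a log2 difference of 3.82 ± 0.12 (edgeR adjusted p = 2.67e-05). TNS1, another tensin (ENSG00000079308, chromosome 2, 217799588 to 218033982, minus strand), ran the other way at a low level, with 3.35, 3.33 and 3.57 CPM in T24 against 16.4, 10.7 and 10.6 CPM in UMUC3 (-1.87 ± 0.26, adjusted p = 0.00343). Zyxin (ZYX, ENSG00000159840, chromosome 7, 143381080 to 143391111, plus strand), a LIM protein of tensed adhesions, was lower in T24 too, at 349, 270.4 and 249 CPM against 666, 596 and 520.3 CPM in UMUC3 (-1.04 ± 0.12, adjusted p = 0.00197). No library of one line entered the range of the other for these 3 genes.

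FLNA (ENSG00000196924, chromosome X, 154348524 to 154374638, minus strand), which crosslinks actin and binds beta tails, was the most abundant of the group, with 8789, 8360.1 and 7163 CPM in T24 against 5419, 5321 and 4781 CPM in UMUC3 (log2 0.65 ± 0.06, edgeR adjusted p = 0.000629). Alpha-actinin 1 (ACTN1, ENSG00000072110, chromosome 14, 68874143 to 68979440, minus strand), an actin crosslinker, had 1046, 1046 and 1043 CPM in T24 against 468, 454 and 456 CPM in UMUC3 (1.19 ± 0.07, adjusted p = 0.00019). Its sums within a line were close to equal, while the transcripts behind them were not. Alpha-actinin 4 (ACTN4) did not differ past the threshold, with 1005, 951 and 1166 CPM in T24 against 897, 844 and 1060.2 CPM in UMUC3, nor did kindlin 2 (FERMT2), with 160.2, 88.4 and 55.1 CPM against 142, 162 and 131 CPM (edgeR adjusted p = 0.137 and 0.172).

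In the ILK-PINCH-parvin complex, which sits on beta tails and binds actin, ILK and PARVA were higher in T24 and LIMS1 and RSU1 did not pass. ILK, the pseudokinase at its centre (ENSG00000166333, chromosome 11, 6603708 to 6610874, plus strand), had 303, 279.6 and 281 CPM in T24 against 173, 146 and 94.6 CPM in UMUC3 (1.10 ± 0.18, edgeR adjusted p = 0.0055). PARVA, alpha-parvin (ENSG00000197702, chromosome 11, 12377185 to 12535356, plus strand), had 138, 139.9 and 142 CPM in T24 against 32.3, 29.7 and 32.2 CPM in UMUC3 (2.16 ± 0.11, adjusted p = 0.000126). LIMS1 (PINCH1) stood at 69.9, 64.0 and 44.3 CPM against 42.1, 49.5 and 46.2 CPM, and RSU1, which binds PINCH1, at 137, 108 and 106 CPM against 101, 104 and 81.2 CPM (edgeR adjusted p = 0.179 and 0.126). LIMS1 has near-identical copies in the genome, so its sum is uncertain.

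Among kinases and adaptors, SRC and BCAR1 were higher in T24. SRC, the tyrosine kinase (ENSG00000197122, chromosome 20, 37344685 to 37406050, plus strand), had 163, 153 and 133 CPM in T24 against 21.4, 19.5 and 22.3 CPM in UMUC3 (2.83 ± 0.14, edgeR adjusted p = 0.000113). BCAR1, which encodes the Src substrate p130Cas (ENSG00000050820, chromosome 16, 75228187 to 75268053, minus strand), had 247, 218 and 182 CPM against 63.4, 46.4 and 67.1 CPM (1.87 ± 0.20, adjusted p = 0.00142). Of the partners of p130Cas, CRK had 203, 210.2 and 136 CPM in T24 against 218, 222 and 221 CPM in UMUC3, CRKL 219, 223 and 202 CPM against 215, 212 and 207 CPM, and DOCK1, an activator of Rac, 175, 188 and 164 CPM against 175, 176 and 94.7 CPM. Paxillin (PXN), a scaffold that collects many of these proteins, had 77.2, 318 and 30.7 CPM in T24 against 81.8, 53.5 and 57.2 CPM in UMUC3. None of these 4 passed (edgeR adjusted p = 0.175, 0.849, 0.224 and 0.461).

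**Figure D2:**
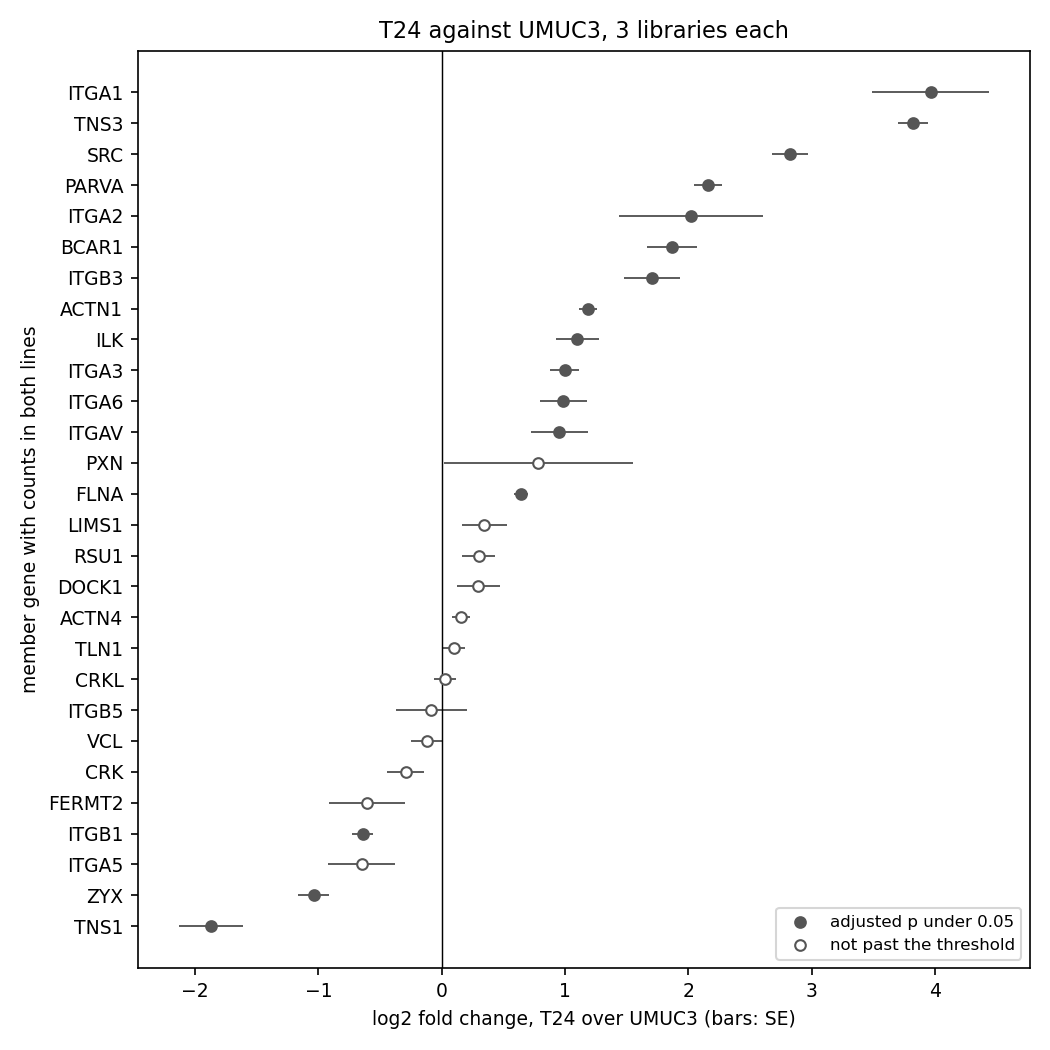
Log2 fold change of T24 over UMUC3 with its standard error for the 28 genes that have more than a few counts in both lines, sorted by value, filled where the edgeR adjusted p is under 0.05. ITGA1 and TNS3 stand at the top with 3.96 and 3.82, and ZYX and TNS1 at the bottom with -1.04 and -1.87, while ITGA4, ITGB4 and ITGB8 are not drawn because a line had 4 counts or fewer.

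Within genes, counts moved between annotated transcripts from library to library, and segments of 5 members are shown because the share of counts on transcripts that hold them differed between libraries. These 5 genes were picked with their values known, and other members moved as much or more. Capitals mark the segment, lower case the 15 bases on each side of it in the spliced transcript, read 5′ to 3′ from GENCODE release 29 transcripts on GRCh38. All lie wholly in coding sequence.
FLNA cassette of 24 bases (chrX:154357251-154357274, minus strand): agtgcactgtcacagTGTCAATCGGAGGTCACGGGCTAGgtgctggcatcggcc
ACTN1 exon of 66 bases (chr14:68878458-68878523, minus strand): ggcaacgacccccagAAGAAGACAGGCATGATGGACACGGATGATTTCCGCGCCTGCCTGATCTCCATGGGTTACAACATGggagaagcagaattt
ACTN1 exon of 81 bases (chr14:68878989-68879069, minus strand): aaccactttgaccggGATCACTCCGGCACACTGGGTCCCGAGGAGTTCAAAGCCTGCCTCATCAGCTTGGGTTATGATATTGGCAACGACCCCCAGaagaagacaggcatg
ITGAV exon stretch of 62 bases (chr2:186630797-186630858, plus strand): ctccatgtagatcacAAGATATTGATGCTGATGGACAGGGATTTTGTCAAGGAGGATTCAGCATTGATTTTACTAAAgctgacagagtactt
ITGAV exon stretch of 46 bases (chr2:186633329-186633374, plus strand): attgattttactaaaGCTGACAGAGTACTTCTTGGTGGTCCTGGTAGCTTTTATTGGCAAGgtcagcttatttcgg
CRK stretch of 170 bases (chr17:1436620-1436789, minus strand): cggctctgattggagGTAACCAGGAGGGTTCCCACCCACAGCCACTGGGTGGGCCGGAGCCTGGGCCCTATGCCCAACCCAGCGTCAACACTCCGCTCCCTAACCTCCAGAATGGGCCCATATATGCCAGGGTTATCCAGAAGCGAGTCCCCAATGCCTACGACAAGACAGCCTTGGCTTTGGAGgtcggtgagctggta
FERMT2 cassette of 21 bases (chr14:52861014-52861034, minus strand): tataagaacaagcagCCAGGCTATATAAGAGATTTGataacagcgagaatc

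Transcripts with the FLNA cassette held 57.7 and 83.6% in the knockdown libraries, against 50.2% in the control of T24. In UMUC3 they held 84.0 and 83.3% in the knockdown libraries, against 24% in the control. A single transcript, FLNA-203, took 83.5% of the FLNA counts in T24 knockdown 2 and 83.8 and 83.1% in the UMUC3 knockdown libraries, and 0 counts in T24 knockdown 1 and in both controls. FLNA-202, which carries the cassette too, held 18.3 and 0.1% in the T24 knockdown libraries against 50.2% in the control, so much of the exchange was between transcripts that do not differ by it. In T24 knockdown 1, 39.4% of the counts stood instead on FLNA-205, an annotated decay target that no other library used beyond 1 count.

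ACTN1 showed the same split of libraries in T24. The 66-base and 81-base exons of ACTN1 vary the calcium-binding EF-hand region of the protein, and they adjoin in ACTN1-203. ACTN1-203 held 77.1% of the ACTN1 counts in T24 knockdown 2 and none in T24 knockdown 1 or the T24 control. Transcripts with the 81-base exon held 54.5 and 88.3% in the knockdown libraries, against 58.6% in the control of T24, and 91.9 and 86.4% in the knockdown libraries, against 24.3% in the control of UMUC3. Transcripts with the 66-base exon held 44.1 and 88.3% in the knockdown libraries, against 40.6% in the control of T24, and 90.9 and 85.2% in the knockdown libraries, against 86.9% in the control of UMUC3.

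ITGAV-202 lacks both ITGAV stretches. Transcripts that hold them had 99.6 and 23.0% in the knockdown libraries, against 99.7% in the control of T24, and 41.9 and 7.3% in the knockdown libraries, against 99.5% in the control of UMUC3. ITGAV-202 took the rest, 76.2% in T24 knockdown 2 and 56.8 and 92.2% in the UMUC3 knockdown libraries, with no count in T24 knockdown 1 or in either control. Its count of 0 in those 3 libraries stands beside 13461, 3690 and 7223 counts in the other 3.

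In CRK the T24 knockdown libraries stood together, away from their control. The 170-base stretch separates CRK-201, the long form known as CrkII, from CRK-202, the short form known as CrkI that lacks the second SH3 domain and the regulatory tyrosine. Transcripts with the stretch held 36.7 and 41.2% in the knockdown libraries, against 3.4% in the control of T24, which amounts to 4442 and 5149 counts against 278. The short form was steady there, at 7655 and 7343 counts in the T24 knockdown libraries, against 7812 in the T24 control. In UMUC3 the long form held 39.0 and 40.8% in the knockdown libraries, against 33.8% in the control. For FERMT2, transcripts with the 21-base cassette held 52.5 and 10.9% in the knockdown libraries, against 14.5% in the control of T24, and 43.0 and 53.8% in the knockdown libraries, against 47.3% in the control of UMUC3.

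The authors' processing divided the reads among transcripts that share most of their bases, and no test was run on these shares. Comparing the libraries of a line in pairs, the largest share of a gene's counts found on another transcript was 0.835 in T24 and 0.838 in UMUC3 for FLNA, 0.781 and 0.714 for ACTN1, and 0.767 and 0.924 for ITGAV. It was also large for ITGA1 (1.0, on 49 counts or fewer a library), TNS1 (0.968) and BCAR1 (0.783) in UMUC3, and for PXN (0.704), ITGB4 (0.7) and RSU1 (0.518) in T24, whose transcripts are not shown. For ITGA5 it was 0.007 and 0.01 in T24 and UMUC3, and for ITGB1 0.003 and 0.015. This share is called the composition shift below, and 14 of the 31 genes stayed under 0.2 in both lines and had at least 2 transcripts.

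**Figure D3:**
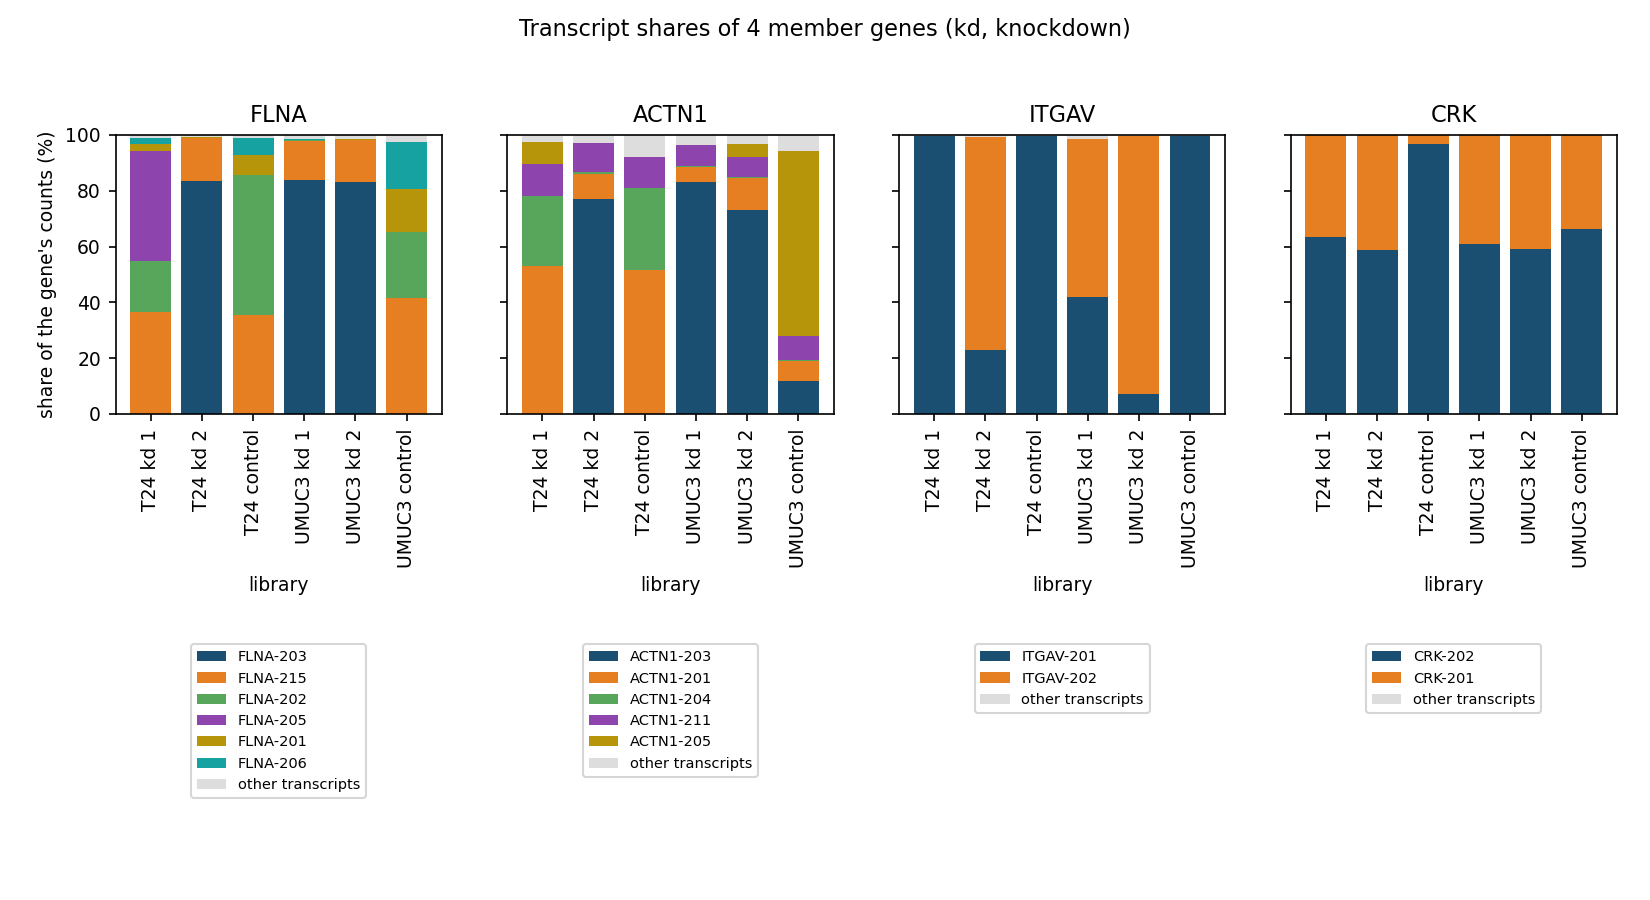
Share of the counts of FLNA, ACTN1, ITGAV and CRK that each annotated transcript took in the 6 libraries (stacked bars to 100%, colours by transcript, kd for knockdown). FLNA-203 and ITGAV-202 appear in T24 knockdown 2 and both UMUC3 knockdown libraries and at 0% in the other 3, while CRK-201 takes 36.7 and 41.2% in the T24 knockdown libraries against 3.4% in the T24 control.

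After knockdown, the only change among the 31 genes called by edgeR over all 20721 tested genes was in the collagen receptor chain ITGA2. It fell in UMUC3. It had 60.7 and 70.0 CPM in the UMUC3 knockdown libraries, against 195 CPM in the UMUC3 control. Both knockdown libraries were below the control, and the log2 fold change was -1.58 ± 0.12 (SE, 2 knockdown libraries against 1 control, edgeR adjusted p = 0.0431). ITGA2 was the only one of the 31 genes called there, beside 0.647% of all tested genes in either direction and 0.217% lower. The call ended when any knockdown library of either line was left out (lowest and highest log2 values -1.68 and -1.48 over the left-out libraries). It also ended with limma voom, with edgeR's older quasi-likelihood fit and with the library number as a block. Leaving out a knockdown library or adding the block leaves less from which to estimate the spread of any gene. With voom, and with the block, no gene at all was called in UMUC3. DESeq2 called 5 of the 31 genes in UMUC3, ITGA2 and ITGA1 lower and ITGB3, ILK and DOCK1 higher, beside 8.28% of all genes.

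In T24 the same gene stood on the other side of its control, at 458 and 476 CPM in the knockdown libraries, against 233 CPM in the control. Its log2 value of 1.00 ± 0.12 did not pass in T24 (edgeR adjusted p = 0.109). The difference of the knockdown effects, T24 minus UMUC3, was 2.58 ± 0.17 and had an adjusted p of 0.0585 in edgeR, just above the threshold. It passed with DESeq2 and without the filter on low counts. The composition shift of ITGA2 was 0.021 in T24 and 0.273 in UMUC3. In UMUC3 knockdown 1, 25.9% of its counts lay on ITGA2-203, and in knockdown 2, 19.2% lay on ITGA2-206. Both are annotated decay targets with no count in the UMUC3 control.

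ITGA5 had 397 and 386 CPM in the T24 knockdown libraries, against 146 CPM in the T24 control, a ratio of 2.68. Both knockdown libraries were far above the control and close to each other. The log2 value of 1.42 ± 0.10 missed the threshold over all genes (edgeR adjusted p = 0.0569). It passed with DESeq2, with no filter on low counts and among the composition-stable genes, a set picked from these same libraries. No member was called in T24, beside 0.135% of all genes. At an unadjusted p under 0.05 there were 11 members in T24 (9 higher, 2 lower) beside 12.5% of all genes, DESeq2 called 6 (5 higher, 1 lower) beside 4.73%, and voom called 0 beside 0.0%. In UMUC3, ITGA5 had 482 and 439 CPM after knockdown, against 414 CPM in the control, and the difference of the effects was 1.27 ± 0.13 (edgeR adjusted p = 0.113).

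The remaining alpha chains with counts in T24 had fitted values above 0 there, with no call. ITGAV had 304 and 297 CPM in the T24 knockdown libraries, against 173 CPM in the control (0.80 ± 0.11, edgeR adjusted p = 0.12), and the transcript behind it differed between the knockdown libraries as shown above. In UMUC3 it had 116 and 129 CPM against 145 CPM (-0.24 ± 0.11, adjusted p = 0.372). ITGA3 had 1974 and 1717 CPM against 1464 CPM in T24, and 819.7 and 852 CPM against 896 CPM in UMUC3. For ITGA6 the T24 knockdown libraries, 218 and 145 CPM, lay on both sides of the control at 162 CPM, and without knockdown 1 the log2 values of ITGA6 and ITGA1 were -0.16 and -0.11. Over the 6 alpha chains with counts in T24, the median log2 value was 0.57 with 6 above 0, beside a median of 0.01 and 50.6% above 0 over all genes. The 7 tested mitochondrially encoded genes lay on the same side, with a median log2 value of 0.42 in T24 and all 7 higher at an unadjusted p under 0.05, beside 12.5% of all genes. Their median was -0.08 in UMUC3, and 0.52 in the difference between the lines with 7 of 7 above 0. Their part in the alpha chain values was not tested. In UMUC3 the 7 alpha chains had a median of -0.10 with 3 above 0, beside 0.02 and 51.3%. ITGA1 there rested on 12 and 12 counts in the knockdown libraries, against 49 in the control (-2.08 ± 0.60, edgeR adjusted p = 0.217), and ITGA4 had 40.0 and 44.4 CPM against 36.0 CPM.

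No beta chain was called after knockdown in either line. ITGB3 had 38.2 and 35.1 CPM in the UMUC3 knockdown libraries, against 15.5 CPM in the control (1.25 ± 0.17, edgeR adjusted p = 0.0815), and 104 and 89.96 CPM against 78.1 CPM in T24 (0.32 ± 0.16, adjusted p = 0.51). ITGB1 had 2709 and 2442 CPM in UMUC3 knockdown libraries, against 1877 CPM in the control, and 1536 and 1602 CPM against 1333 CPM in T24. All 4 knockdown libraries exceeded their own control for both genes. ITGB5 had 203 and 218 CPM against 138 CPM in UMUC3, and 118 and 198 CPM against 206 CPM in T24, so that its knockdown libraries were above the control in UMUC3 and below it in T24. In T24, ITGB4 had 28.5 and 23.8 CPM against 68.7 CPM (-1.39 ± 0.22, edgeR adjusted p = 0.19, called by DESeq2) and ITGB8 89.4 and 123 CPM against 149 CPM (-0.49 ± 0.30, adjusted p = 0.551). Median log2 values of the beta chains were -0.38 in T24 (2 of 5 above 0) and 0.93 in UMUC3 (4 of 4 above 0, ITGB8 among them on 4 counts in all).

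No activator or linker was called after knockdown. Their median log2 values were 0.26 in T24 and 0.17 in UMUC3, beside 0.01 and 0.02 over all genes. FLNA had 8789 and 8360.1 CPM in the T24 knockdown libraries, against 7163 CPM in the control, and 5419 and 5321 CPM against 4781 CPM in UMUC3 (0.26 ± 0.05 and 0.17 ± 0.05 on the log2 scale, edgeR adjusted p = 0.186 and 0.229). ACTN4 was below the control in all 4 knockdown libraries, at 1005 and 951 CPM against 1166 CPM in T24 and 897 and 844 CPM against 1060.2 CPM in UMUC3. ACTN1 had 1046 and 1046 CPM against 1043 CPM in T24 and 468 and 454 CPM against 456 CPM in UMUC3, log2 values of 0.01 ± 0.06 and 0.01 ± 0.07. FERMT2 had 160.2 and 88.4 CPM against 55.1 CPM in T24, where the knockdown libraries were themselves far apart (1.17 ± 0.42, adjusted p = 0.409), and 142 and 162 CPM against 131 CPM in UMUC3. VCL had 762 and 771 CPM against 589.8 CPM in T24 and 719.8 and 758 CPM against 821 CPM in UMUC3, above the control in T24 and below it in UMUC3 (difference 0.53 ± 0.10, edgeR adjusted p = 0.185). TLN1, TNS3 and ZYX were above the control in all 4 knockdown libraries, with log2 values between 0.16 and 0.31 in each line and no call. TNS1 had 3.35 and 3.33 CPM against 3.57 CPM in T24 and 16.4 and 10.7 CPM against 10.6 CPM in UMUC3.

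In the ILK complex, ILK had 173 and 146 CPM in the UMUC3 knockdown libraries, against 94.6 CPM in the control (0.75 ± 0.15, edgeR adjusted p = 0.128), and 303 and 279.6 CPM against 281 CPM in T24, where the libraries overlapped. PARVA had 138 and 139.9 CPM against 142 CPM in T24 and 32.3 and 29.7 CPM against 32.2 CPM in UMUC3, the flattest profile of the complex. LIMS1 had 69.9 and 64.0 CPM against 44.3 CPM in T24 (0.60 ± 0.17, adjusted p = 0.317) and 42.1 and 49.5 CPM against 46.2 CPM in UMUC3. RSU1 was above the control in all 4 knockdown libraries, with log2 values of 0.22 ± 0.18 in T24 and 0.34 ± 0.18 in UMUC3.

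Of the kinases and adaptors, DOCK1 (ENSG00000150760, chromosome 10, 126905409 to 127452517, plus strand) came closest to a call. It had 175 and 176 CPM in the UMUC3 knockdown libraries, against 94.7 CPM in the control (0.89 ± 0.10, edgeR adjusted p = 0.0653), and 175 and 188 CPM against 164 CPM in T24. CRK (ENSG00000167193, chromosome 17, 1420689 to 1463162, minus strand) had 203 and 210.2 CPM against 136 CPM in T24 (0.60 ± 0.09, adjusted p = 0.128), the excess lying in the long form described above, and 218 and 222 CPM against 221 CPM in UMUC3 (-0.01 ± 0.09). CRKL, which has 1 annotated transcript, had 219 and 223 CPM against 202 CPM in T24 and 215 and 212 CPM against 207 CPM in UMUC3. PXN (ENSG00000089159, chromosome 12, 120210439 to 120265771, minus strand) had 77.2 and 318 CPM against 30.7 CPM in T24 and 81.8 and 53.5 CPM against 57.2 CPM in UMUC3. Its T24 value of 2.69 ± 1.07 rests mostly on knockdown 2 and came with a composition shift of 0.704 (edgeR adjusted p = 0.442). Without knockdown 2 it was 1.33. SRC and BCAR1 were above the control in T24 and below it in UMUC3, with differences of 0.38 ± 0.18 and 0.64 ± 0.32 (edgeR adjusted p = 0.469 and 0.477).

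**Figure D4:**
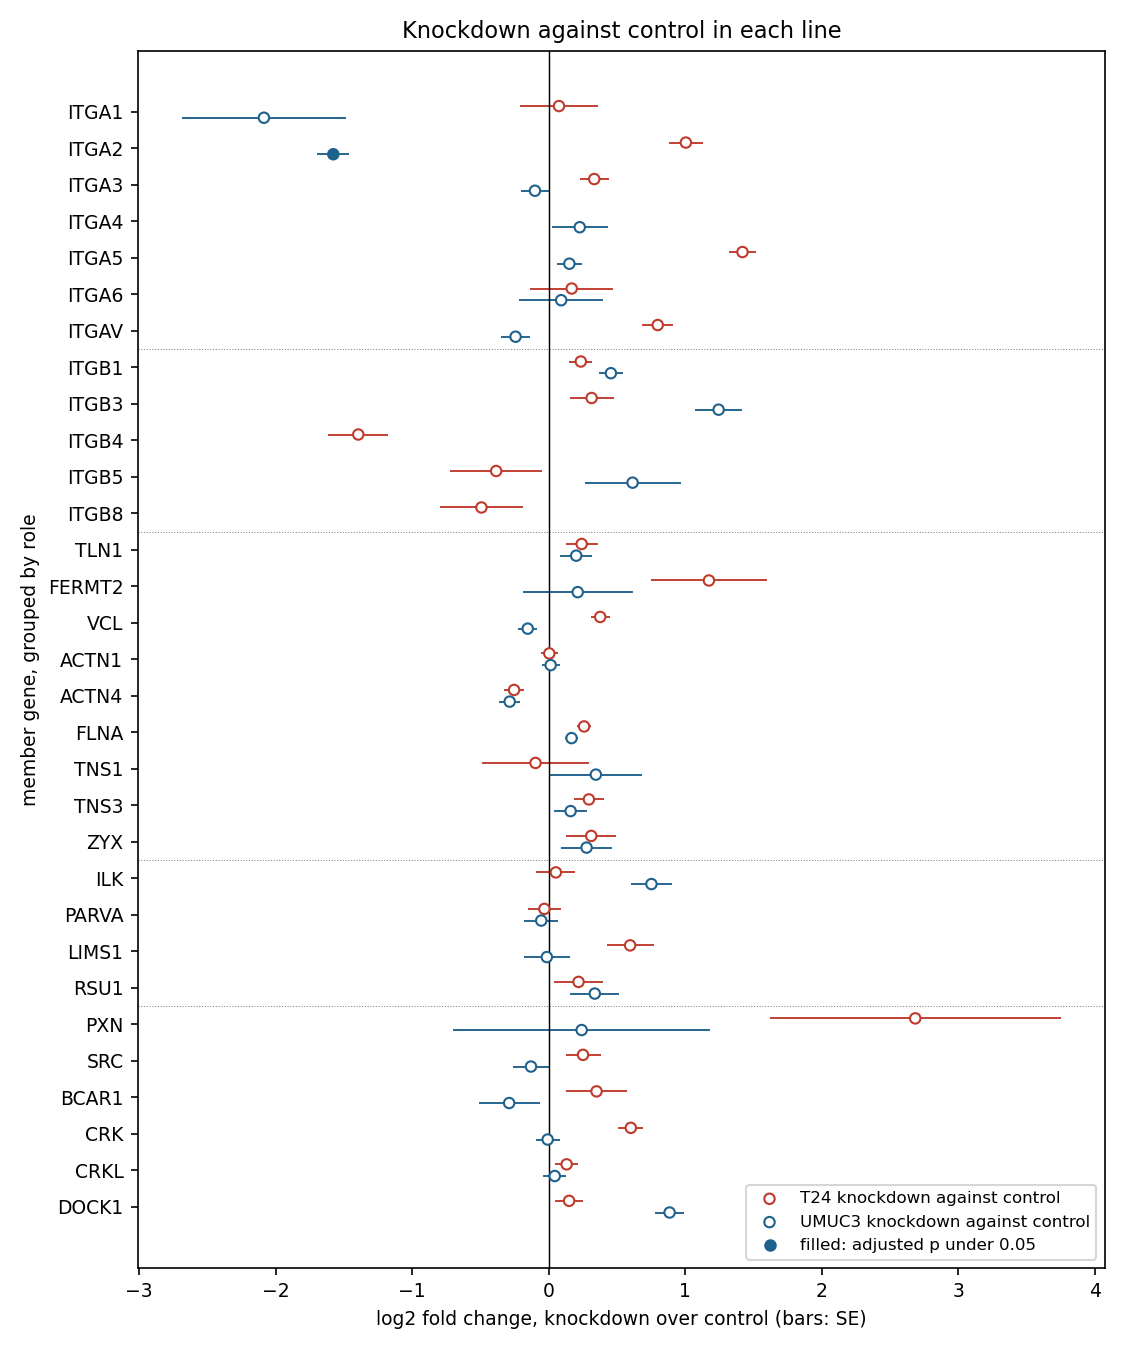
Log2 fold change of knockdown over control with its standard error for each member, grouped by role from alpha chains at the top to kinases and adaptors at the bottom, T24 in red above UMUC3 in blue. ITGA2 in UMUC3 at -1.58 is the only filled point (edgeR adjusted p under 0.05), and ITGA4 in T24 and ITGB4 and ITGB8 in UMUC3 are not drawn because the line had 4 counts or fewer.

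With both lines in one fit, no member was called (edgeR, 4 knockdown against 2 control libraries with line as a term), beside 0.0145% of all genes. At an unadjusted p under 0.05 there were 6, beside 11.6% of all genes. Of these, ITGB1, ITGB3, FLNA and DOCK1 were higher and ITGB4 and ACTN4 lower. DESeq2 called 1, ITGB4, beside 4.73%, and voom called 0. ITGB4 had no count in UMUC3, so its value in both lines rests on T24 alone. ITGB1 had 0.34 ± 0.09 (adjusted p = 0.284), ITGB3 0.74 ± 0.24 (adjusted p = 0.36) and ITGA5 0.74 ± 0.30 (adjusted p = 0.439). In 11 members all 4 knockdown libraries lay above the control of their line, and in 1 below, beside 13.3 and 15.1% of all genes. The median over the 29 members with counts in both lines was 0.21 with 24 above 0, beside 0.01 and 50.6% over all such genes. Of the 23 members outside the largest changes without overlap, 14 took the other sign in at least 1 alternative. These alternatives include runs without the only control of a line, which give the effect of the other line alone. Within T24 the libraries did not overlap in 21 members higher and 6 lower, beside 34.7 and 37.3% of all genes, and within UMUC3 in 15 higher and 8 lower, beside 35.6 and 37.1%.

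The test of the difference between the lines called no member, beside 0.0579% of all genes. There were 10 members at an unadjusted p under 0.05 beside 13.5% of all genes, DESeq2 called 3 (ITGA2, ITGA5 and ITGAV) beside 5.41%, and voom called 0. In 6 members every knockdown library lay above the control in T24 and below it in UMUC3, and in 2 the reverse, beside 12.1 and 12.3% of all genes. Over the 6 alpha chains with counts in both lines the median difference was 1.15 and all 6 were above 0, beside a median of -0.01 and 49.4% over all genes. The 4 beta chains had a median of -0.96 and all were below 0, ITGB8 again on few counts, and none passed with edgeR, DESeq2 or voom. The kinases and adaptors had a median of 0.49 with 5 of 6 above 0.

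Among the 4467 composition-stable genes, refitted on their own, 14 members were tested. That set was picked from these same libraries, by transcript shares that differed little between them, and the adjustment ran over fewer genes. Calls in it are therefore not independent support. In UMUC3, ITGB1, ITGB3, ILK and DOCK1 were called higher and none lower, beside 12.9% of those genes. In T24, ITGA5 was called higher, beside 4.61%, and ITGA5 was also the only member called in the difference between the lines, beside 3.51%. ITGA2 was not in this set. No member was called there in both lines together, beside 1.14%.

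Of other genes of the adhesion pathway, matrix ligands had calls in both lines after knockdown, and kinases and linkers in UMUC3. Of 31 tested matrix ligands, COL4A1, a collagen IV chain of basement membranes, rose in both lines together (log2 1.84 ± 0.10, edgeR adjusted p = 0.0184), with 1272 and 1151 CPM in T24 knockdown libraries against 341 CPM in the control, and 25.4 and 26.8 CPM against 7.17 CPM in UMUC3. FBN1, fibrillin 1, rose in T24 to 622 and 626 CPM, against 237 CPM in the control (edgeR adjusted p = 0.0491). In UMUC3, COL5A1, a fibrillar collagen chain, rose to 119.5 and 109 CPM, against 21.5 CPM, and LAMA5, a laminin chain, fell to 184 and 194 CPM, against 449.7 CPM (edgeR adjusted p = 0.0446 and 0.0495). COL4A1 was also called within each line. The list had 1 call in both lines together beside 0.0145% of all genes, 2 of 31 in T24, both higher, beside 0.135%, and 2 higher and 1 lower in UMUC3 beside 0.647%. At an unadjusted p under 0.05, 13 were higher and 3 lower in both lines together beside 11.6% of all genes, 14 and 5 in T24 beside 12.5%, and 12 and 4 in UMUC3 beside 16.8%. Of 37 kinases, phosphatases and adaptors, CSK, which restrains Src, and PTPN11, the phosphatase SHP2, rose in UMUC3, to 88.9 and 85.2 CPM against 31.1 CPM, and to 478 and 508 CPM against 214 CPM (edgeR adjusted p = 0.0446 and 0.0431). Of 25 further activators and linkers, PPFIA1, liprin alpha-1, fell in UMUC3, to 65.1 and 60.9 CPM against 146 CPM (adjusted p = 0.047). None of 12 further integrin subunits and none of 16 LIM or VASP family proteins was called in a knockdown comparison. Between the lines, counting genes with counts in both, 20 of 30 matrix ligands were higher and 3 lower in T24. Over all tested genes, those absent from a line included, 21.3% were higher and 18.9% lower. The numbers were 15 higher and 3 lower for kinases, phosphatases and adaptors, and 7 and 0 for activators and linkers. Further integrin subunits had 2 higher and 1 lower, and LIM or VASP family proteins 6 and 2. Summed, the 36 matrix ligands in the table reached 16590 and 16480 CPM in T24 knockdown libraries against 10400 CPM in their control. In UMUC3 the sums were 1893 and 2164 CPM in knockdown libraries against 2500 CPM in the control. Such sums follow the most abundant genes. By gene, the median log2 value was 0.42 in T24 with 21 of 31 above 0, beside 0.01 and 50.6% over all genes. In UMUC3 it was 0.64 with 19 of 30 above 0, beside 0.02 and 51.3%. Immune, endothelial and stromal, epithelial and mitochondrial lists had no call after knockdown by edgeR. At an unadjusted p under 0.05 the mitochondrial list had 7 higher in T24 and 1 higher in UMUC3, the epithelial list 2 higher and 1 lower in T24 and 2 lower in UMUC3, the immune list 1 lower in T24 and 1 each way in UMUC3, and the endothelial and stromal list 0.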

How the data were processed

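The authors deposited raw counts per transcript for the 6 libraries (136953 transcripts), with no normalization. Per the submitters' processing notes the build was hg38, and StringTie 1.3.3b, HISAT2 2.1.0 and FastQC 0.11.5 are listed with no role. Transcripts without a gene (15038), with 14.86 to 16.1% of a library's counts, were left out. The others were summed to 30717 genes, and coordinates and spliced sequences are from GENCODE release 29, in which all 298 member transcripts had identical coordinates. No source used here states whether strand was kept, and 25 members overlap a gene on the other strand, so their sums can hold reads of it.

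The 20721 genes with at least 10 counts in 2 libraries and 30 in total were tested with edgeR 4.0.16 in R 4.3.3 (TMM, robust quasi-likelihood F test, Benjamini-Hochberg adjustment over all tested genes at 0.05). Both lines, and T24 against UMUC3, came from a fit whose terms were line and knockdown (4 knockdown against 2 control libraries, and 3 libraries against 3). Effects within a line, and their difference, came from a fit with 4 groups, in which each lone control is assumed to vary like the knockdown pairs. Members described with all libraries are those called, and the 5 highest and 5 lowest fold changes of each comparison among members with a mean of at least 5 CPM and no overlap of libraries. The remaining members are named with their values too. The members, the gene lists, and the composition threshold of 0.2 were chosen with earlier results of these data known. The 9 lists cover further integrin subunits, activators and linkers, LIM and VASP family proteins, kinases and adaptors, matrix ligands, and immune, endothelial and stromal, epithelial and mitochondrial genes.

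Alternatives were DESeq2 1.42.0, limma 3.58.1 (voom), DESeq2 size factors, no filter, other library sizes, composition-stable genes, a block for the library number, each library left out, and, added after seeing the data, edgeR's older quasi-likelihood fit. The knockdown pairs differed beyond sampling noise (chi-square per degree of freedom of 124 in T24 and 121 in UMUC3), so all libraries were kept. The fits were tested on simulated counts. Floors cover counting error only. Figures were drawn with matplotlib 3.10.9 in Python 3.11.15.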

Additional observations from a re-analysis of the deposited data

Results flagged for a closer look

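In 8 of the 31 members every knockdown library lay on one side of its control in T24 and on the other side in UMUC3. In 6 members (19.4%) these libraries lay above the control in T24 and below it in UMUC3, beside 12.1% of all genes. The reverse held in 2 members (6.5%), beside 12.3% of all genes. With both directions counted, the share of members was close to that of all genes, so the count does not set the members apart. The knockdown effect in T24 minus that in UMUC3 was 2.58 on the log2 scale for ITGA2, 1.04 for ITGAV, 0.64 for BCAR1, 0.53 for VCL, 0.43 for ITGA3 and 0.38 for SRC. It was -0.999 for ITGB5 and -0.44 for TNS1. The edgeR test of the difference passed for none of the 8, with the smallest adjusted p, 0.0585, for ITGA2 and the next, 0.155, for ITGAV. Each line has 1 control library, so all knockdown effects of a line share it.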

How the results depend on the processing

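For the members described by the rule on calls and fold changes, no value changed sign under any alternative run. Of the other members with counts, 14 of 23 in both lines, 3 of 20 in T24 and 6 of 20 in UMUC3 changed sign in at least 1 alternative. So did 7 of 22 in the difference and 5 of 11 between the lines, mostly with a library left out. None of these was called, and they include ITGA6 (0.17 in T24, -0.16 without knockdown 1), ILK in T24 and PXN in UMUC3. ITGA2 in both lines changed too (-0.48, 1.00 without the UMUC3 control). Without the only control of a line, the value in both lines is that of the other line alone. Such sign changes follow from opposite values in the 2 lines. Of the first members' alternative values, 312 of T24 against UMUC3, 127 in T24, 122 in UMUC3, 89 in both lines and 84 in the difference between the lines kept their side of the threshold. Between the lines, 16 calls were lost and 1 was gained, and the losses include ITGA2 and ITGAV (0.255 and 0.257 with control libraries only). In knockdown comparisons, 8 calls were lost in UMUC3, all of ITGA2, and 7, 7 and 3 were gained in T24, UMUC3 and the difference. DESeq2 called 981 genes and 1 member in both lines, 980 and 6 in T24, 1715 and 5 in UMUC3, and 1120 and 3 in the difference. Limma voom called 0 genes in T24, UMUC3 and the difference, and 0 members in UMUC3. The older quasi-likelihood fit called 2 genes in T24, 13 in UMUC3 and 5 in the difference, and 0 members in UMUC3, and DESeq2 size factors gave 5 genes in the difference. With no filter the genes called were 8, 43, 228 and 35 in both lines, T24, UMUC3 and the difference, with 1 member in T24 and 1 in the difference. Among composition-stable genes, which are fewer, they were 51, 206, 575 and 157, and 2428 between the lines, with 1, 4, 1 and 8 members in T24, UMUC3, the difference and between the lines. Control libraries only gave 5049 genes between the lines. With 1 library left out, genes called ranged from 0 to 134 in both lines, 0 to 25 in T24, 0 to 134 in UMUC3, 0 in the difference and 5865 to 7181 between the lines, and members from 0 to 1 in both lines and in UMUC3. Those fits rest on fewer libraries, and those of both lines without a control hold only the knockdown effect of the other line. The deviations of same-numbered knockdown libraries from their group means had a correlation of 0.015 over 20721 genes. No deviation shared by number was seen over all genes, which does not settle whether a number names the same reagent in both lines. With the replicate block, by titles or by column names, 0 genes were called in each knockdown comparison and 0 members, and 18 members remained called between the lines. Other causes of these changes were not tested. Depth limits ITGB8 and ITGA1 in UMUC3, which rest on 4 counts or fewer and 49 or fewer per library.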
